A study of Mus musculus with 6 samples.

Results

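The genes described here encode caveolins and other scaffold proteins of membrane domains, namely Cav1, Cav2, Ehd2, Pacsin2, Flot1, and Flot2, which are 6 of the 25215 genes measured. They were chosen by measured values: Cav1 was selected on its difference between R499 tumors and the other conditions, and the others were added as its partners in caveolae or as scaffolds of another kind of domain. The differences of these genes between R499 and B16 or B16PD1 are therefore a description with no test, and only B16PD1 against B16 was tested for them.

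Caveolae are small pits of the plasma membrane that buffer membrane tension and organize signaling receptors and lipids. Caveolin-1 forms their coat together with cavins, caveolin-2 joins it as a hetero-oligomer, EHD2 holds the neck of the pit at the membrane, and PACSIN2 bends the membrane there. Flotillins assemble into separate, cholesterol-rich domains and are often used as markers of them. Caveolin-1 is abundant in endothelial cells, adipocytes, fibroblasts, and muscle.

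Single-cell RNA was sequenced from tumors of 6 C57BL/6 mice, with 2 tumors in each of 3 conditions. B16 is a mouse melanoma line, and B16PD1 tumors came from the same line in mice given 3 doses of anti-PD1, each of 200 μg, the first on day 5 and the later ones on days 8 and 11. R499 tumors grew without treatment from the R499 line. The source of that line was a B16 tumor that had been given radiation and anti-CTLA4 and had grown back. R499 therefore differs from B16 by the line and its history. Each mouse received 50000 cells, tumors were taken on day 15, and sorting of CD45-negative cells left out most immune cells. The age of the mice, and whether the cells of a tumor came from 1 or both injected flanks, were not given in the sources used here.

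Transcript abundance was deposited as TPM, a transcript measure with a fixed sum per cell, in 602 cells, of which 507 were retained. Retained cells numbered 91 in B16007, 86 in B16008, 86 in B16PD1000, 88 in B16PD1002, 81 in R499015, and 75 in R499016. TPM keeps no read depth and could not be thinned, so depth is described by genes with TPM above 0 in a cell, called detected. Their median per retained cell was 3647 in B16007, 3388.5 in B16008, 3807.5 in B16PD1000, 3838.5 in B16PD1002, 3141 in R499015, and 3682 in R499016. R499015 was the shallowest tumor. The filter kept 80.2% and 75.0% of the cells of the R499 tumors and 86% to 90.1% of those of the other 4. No well position was shared between any 2 tumors, and 0 cells had identical values.

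Cells carried the identity of melanoma cells. Tyrp1 and Dct, enzymes of pigment synthesis, were detected in 507 of 507 cells, and Mlana, a melanosome protein, in 504. The 10 melanocyte lineage markers summed to a mean TPM of 19161 in B16007, 18370.1 in B16008, 15795 in B16PD1000, 16165 in B16PD1002, 19672 in R499015, and 18584 in R499016.

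Cav1, the main structural protein of caveolae, was detected in 65.4% of cells from R499015 and 64.0% from R499016, against 40.7% from B16007, 22.1% from B16008, 26.7% from B16PD1000, and 31.8% from B16PD1002. The tumor mean of log2(TPM + 1) was 2.31 and 1.16 for B16, 1.38 and 1.86 for B16PD1, then 4.43 and 3.88 for R499. Both R499 tumors were above all 4 others in share and in level, and the B16 and B16PD1 tumors overlapped. Ranked by level, the order was R499015, R499016, B16007, B16PD1002, B16PD1000, and B16008. The pooled SD between tumors of a condition was 0.55, and the steps within R499 and among the last 4 tumors were each smaller than this SD.

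The share of Cav1-positive cells averaged 64.7% ± 1.01 (SD, n = 2 tumors) in R499, 31.4% ± 13.1 (SD, n = 2) in B16, and 29.3% ± 3.59 (SD, n = 2) in B16PD1. The 95% Wilson intervals, which cover counting error only, were 54.6% to 74.9% in R499015 and 52.7% to 73.9% in R499016. On the log2(TPM + 1) scale, the difference of R499 minus B16 was 2.42 (SE 0.38) and that of R499 minus B16PD1 was 2.54 (SE 0.38). From the log2 of mean TPM plus 1, these differences were smaller, at 1.78 and 2.01. Mean TPM was 126.4 and 85.4 for R499, 42.3 and 20.4 for B16, then 17.9 and 34.9 for B16PD1.

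Both the share of cells and the mean log2 level within positive cells were higher in R499. Among Cav1-positive cells only, mean log2(TPM + 1) was 6.77 in R499015 and 6.06 in R499016, 5.67 in B16007 and 5.26 in B16008, and 5.15 in B16PD1000 and 5.84 in B16PD1002. Positive cells of R499 were thus above those of B16 by 0.95 and of B16PD1 by 0.92 on this scale, and these tumor means did not overlap. The median TPM of positive cells in R499 overlapped that of B16 but not that of B16PD1. It was 122.4 and 61.2 for R499, 61.3 and 33.8 for B16, then 27.3 and 49.4 for B16PD1. Which cells count as positive depends on depth, and the part of depth in this difference was not tested.

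Treatment of B16 with anti-PD1 was the comparison that had not chosen Cav1. The difference of B16PD1 minus B16 was -0.12 (SE 0.38, 95% confidence interval -0.93 to 0.70, limma adjusted p = 0.994), which was smaller than the spread between tumors. Its sign changed without B16007, to 0.46, without B16PD1000, to 0.13, and in cells with 2500 to 5000 genes detected, to 0.04. In this comparison limma called 0 of the 11264 genes tested, or 0%, and 528 had an unadjusted p under 0.05. None of the other 5 members passed the threshold either, with differences from -0.08 to 0.0013.

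**Figure D1:**
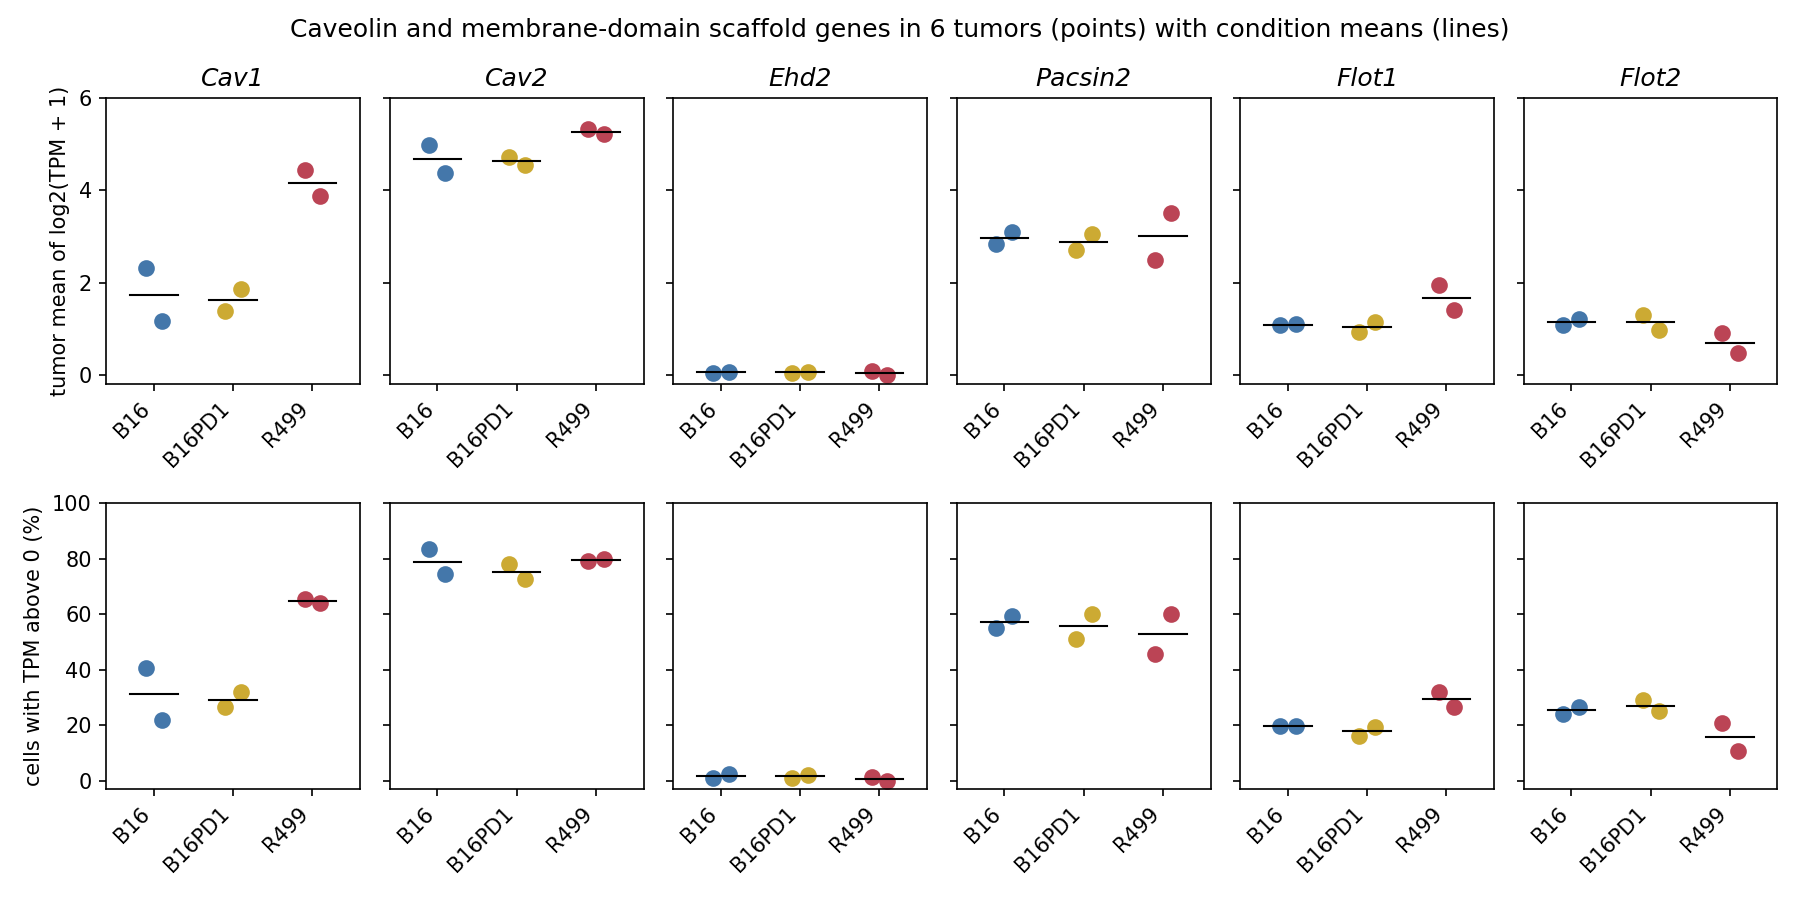
Tumor means of log2(TPM + 1) (upper row) and percent of retained cells with TPM above 0 (lower row) for the 6 genes, with a point for each tumor and a line at the condition mean. Cav1 sits at 4.43 and 3.88 in the R499 tumors and between 1.16 and 2.31 in the others, and Flot2 is lower in both R499 tumors.

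Cav2, the partner of caveolin-1 in the caveolar coat, was the most widely detected of the 6 genes, in 395 of 507 cells. Its tumor mean of log2(TPM + 1) was 4.97 in B16007, 4.37 in B16008, 4.72 in B16PD1000, 4.55 in B16PD1002, 5.33 in R499015, and 5.21 in R499016. The R499 tumors were the highest and did not overlap the others. The difference was 0.60 (SE 0.34) against B16 and 0.64 (SE 0.34) against B16PD1, and ranged over the alternatives from 0.30 (without B16008) to 1.0 and from 0.30 (from mean TPM) to 1.28.

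The share of cells with Cav2, in contrast, overlapped between conditions. It was 83.5% in B16007, 74.4% in B16008, 77.9% in B16PD1000, 72.7% in B16PD1002, 79.0% in R499015, and 80.0% in R499016. The higher Cav2 level of R499 lay within positive cells, whose mean log2(TPM + 1) was 6.75 and 6.52 for R499, 5.95 and 5.88 for B16, then 6.05 and 6.26 for B16PD1.

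Cav1 lay below Cav2 on the log2 scale in every tumor, and the gap was narrower in R499. Cav1 minus Cav2 was -2.67 and -3.21 for B16, -3.34 and -2.69 for B16PD1, then -0.90 and -1.33 for R499. Mean TPM of Cav1, which is scaled by transcript length, was 1.10 times that of Cav2 in R499015 and 0.833 times in R499016, and between 0.211 and 0.478 times in the other 4 tumors. Whether the 2 genes differed from each other in their R499 difference was not tested.

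Ehd2, the ATPase at the neck of caveolae, was detected in 7 of 507 cells. Single cells of B16007, B16PD1000, and R499015 and 2 cells each of B16008 and B16PD1002 held it, and 0 of 75 did in R499016. With 3 counts as the limit for a count of 0, this allows up to 4.0% of R499016 cells with a detected transcript. These counts leave no comparison between conditions.

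Pacsin2, an F-BAR protein that shapes the caveolar membrane, had tumor means of 2.83 and 3.09 for B16, 2.72 and 3.05 for B16PD1, then 2.48 and 3.52 for R499. The R499 tumors were the lowest and the highest of all 6, so the conditions overlapped by tumor mean over all cells. Its share of cells ranged from 45.7% in R499015 to 60.2% in B16PD1002. Among Pacsin2-positive cells, mean log2(TPM + 1) was 5.44 and 5.86 for R499, 5.15 and 5.21 for B16, then 5.31 and 5.06 for B16PD1. By this measure both R499 tumors were above the others, and its share over all genes was not counted.

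Flot1 and Flot2, which form the flotillin scaffold together, lay in opposite directions in R499 by tumor mean over all cells. Flot1 had tumor means of 1.07 and 1.10 for B16, 0.93 and 1.14 for B16PD1, then 1.94 and 1.40 for R499. Flot2 had tumor means of 1.07 and 1.22 for B16, 1.30 and 0.98 for B16PD1, then 0.90 and 0.47 for R499. Both R499 tumors were above the others for Flot1 and below them for Flot2.

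Shares of cells also lay above the others in R499 for Flot1 and below them for Flot2, while mean log2 levels within positive cells were not apart from all 4 other tumors. Flot1 was detected in 32.1% and 26.7% of cells of the R499 tumors and in 16.3% to 19.8% elsewhere. Flot2 was detected in 17 of 81 cells of R499015, in 10.7% of R499016, and in 24.2% to 29.1% elsewhere. Among positive cells, mean log2(TPM + 1) of Flot1 was 6.06 and 5.26 for R499, 5.42 and 5.55 for B16, then 5.69 and 5.88 for B16PD1, and that of Flot2 was 4.29 and 4.42 for R499, 4.43 and 4.55 for B16, then 4.46 and 3.92 for B16PD1. The median TPM of Flot2-positive cells was highest in the R499 tumors, at 31.3 (17 cells) and 26.8 (8 cells), against 16.4 to 26.4. The difference of Flot1 was 0.59 (SE 0.27) against B16 and 0.64 (SE 0.27) against B16PD1, and that of Flot2 was -0.46 (SE 0.24) and -0.45 (SE 0.24). Leaving out R499015 brought Flot1 to 0.32 and 0.37, and leaving out R499016 brought Flot2 to -0.24 and -0.24. Over all alternatives Flot1 ranged from 0.31 to 1.09 and from 0.29 to 1.03, and Flot2 from -0.97 to -0.20 and from -0.81 to -0.16.

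Cav1 was thus not the sole member with higher values in R499, since Cav2 and Flot1 were also higher in both R499 tumors by mean log2(TPM + 1) over all cells. The Cav1 difference was the largest of the 6 on this scale. Nothing is read from this rank, because Cav1 was selected on that difference. Over all 11264 genes limma called 7, or 0.0621%, in R499 minus B16, and 8, or 0.071%, in R499 minus B16PD1, and calls of the members are not counted because these contrasts chose Cav1. Members with both R499 tumors above both B16 tumors numbered 3 (Cav1, Cav2, and Flot1), against 11.6% of all genes, and 1 (Flot2) lay below, against 30.1%. The same 3 and 1 held against B16PD1, where the shares of all genes were 10.2% and 31.3%. Cav2 overlapped the other tumors in cells with more than 2000 genes and under 5% mitochondrial TPM and in cells without stromal markers, and Flot2 in the latter, with cell means subtracted, and from the log2 of mean TPM. These contrasts also share the R499 tumors, and nothing is read from the counts.

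Most cells with Cav1 had Cav2 as well. In R499015, 45 cells had both transcripts, 8 had only Cav1, 19 had only Cav2, and 9 had neither. R499016 had 43, 5, 17, and 10 such cells. Co-detection thus reached 55.6% and 57.3% of cells in the R499 tumors, and 36.3% in B16007, 18.6% in B16008, 18.6% in B16PD1000, and 26.1% in B16PD1002.

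Cells with only Cav2 were correspondingly fewer in R499. They numbered 43 of 91 in B16007, 48 of 86 in B16008, 51 of 86 in B16PD1000, and 41 of 88 in B16PD1002, against 19 of 81 and 17 of 75 in the R499 tumors. Cells with only Cav1 stayed between 3 and 8 in every tumor.

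**Figure D2:**
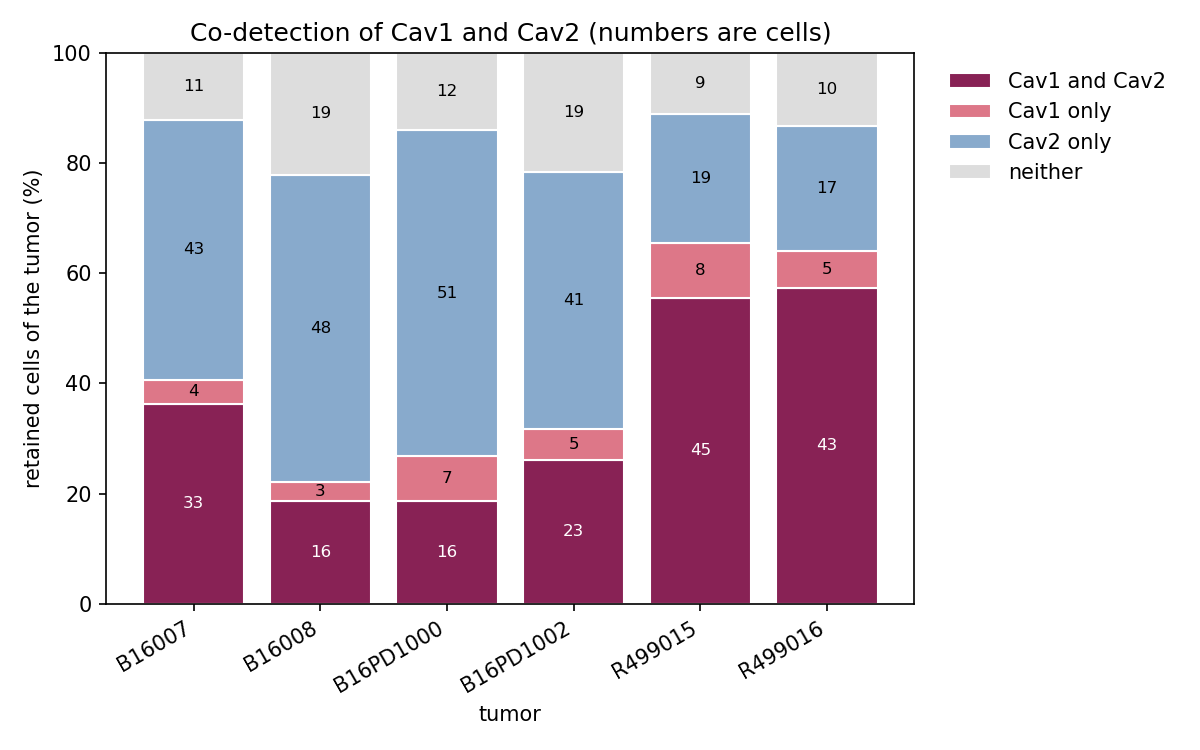
Percent of retained cells of each tumor with both, only Cav1, only Cav2, or neither transcript at TPM above 0, with cell numbers in the bars. Co-detection reaches 55.6% and 57.3% in the R499 tumors and at most 36.3% in the other 4.

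Given Cav1, the share of cells with Cav2 was 84.9% in R499015 and 89.6% in R499016, against 67.9% and 63.0% of their Cav1-negative cells. In the other tumors these shares were 89.2% against 79.6% in B16007, 84.2% against 71.6% in B16008, 69.6% against 81.0% in B16PD1000, and 82.1% against 68.3% in B16PD1002. Among all retained cells, B16PD1000 alone had less Cav2 in its Cav1-positive cells. If the 2 transcripts were detected independently, 41.9 cells would have had both in R499015 and 38.4 in R499016, against the 45 and 43 found.

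Depth moved with these shares. Cav1-positive cells had a median of 3525 genes detected in R499015 and 4152.5 in R499016, against 2563 and 2732 in Cav1-negative cells. In cells with 2500 to 5000 genes detected, the share with Cav2 was 88.2% of Cav1-positive and 85.7% of Cav1-negative cells of R499015, and 90.3% and 75.0% in R499016. The order was the opposite in the other 4 tumors, with 83.3% and 88.2% in B16007, 66.7% and 79.1% in B16008, 60% and 83.3% in B16PD1000, and 81.0% and 81.6% in B16PD1002. Over the 317 cells of all tumors in that window, the share with Cav2 was 82.1% of Cav1-positive and 82.5% of Cav1-negative cells. Some groups were small, with 14 Cav1-negative cells in R499015, 12 in R499016, and 9 Cav1-positive cells in B16008. The 95% Wilson intervals of Cav1-positive and Cav1-negative cells overlapped in each tumor.

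Cav1 itself had higher shares in both R499 tumors than in the other 4 in each depth class. In cells with 2500 to 5000 genes detected, it was detected in 70.8% and 72.1% for R499015 and R499016, 41.4% and 17.3% for B16007 and B16008, then 26.3% and 35.6% for B16PD1000 and B16PD1002. Below 2500 genes it was found in 10 of 23 and 9 of 22 cells of the R499 tumors, and in 2 of 37 cells of B16 and 1 of 28 of B16PD1. Above 5000 genes 17 of 20 cells were positive in R499, 21 of 30 in B16, and 14 of 30 in B16PD1. The Wilson intervals of the R499 tumors overlapped those of B16007 and B16PD1000 below 2500 genes and those of all 4 other tumors above 5000.

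**Figure D3:**
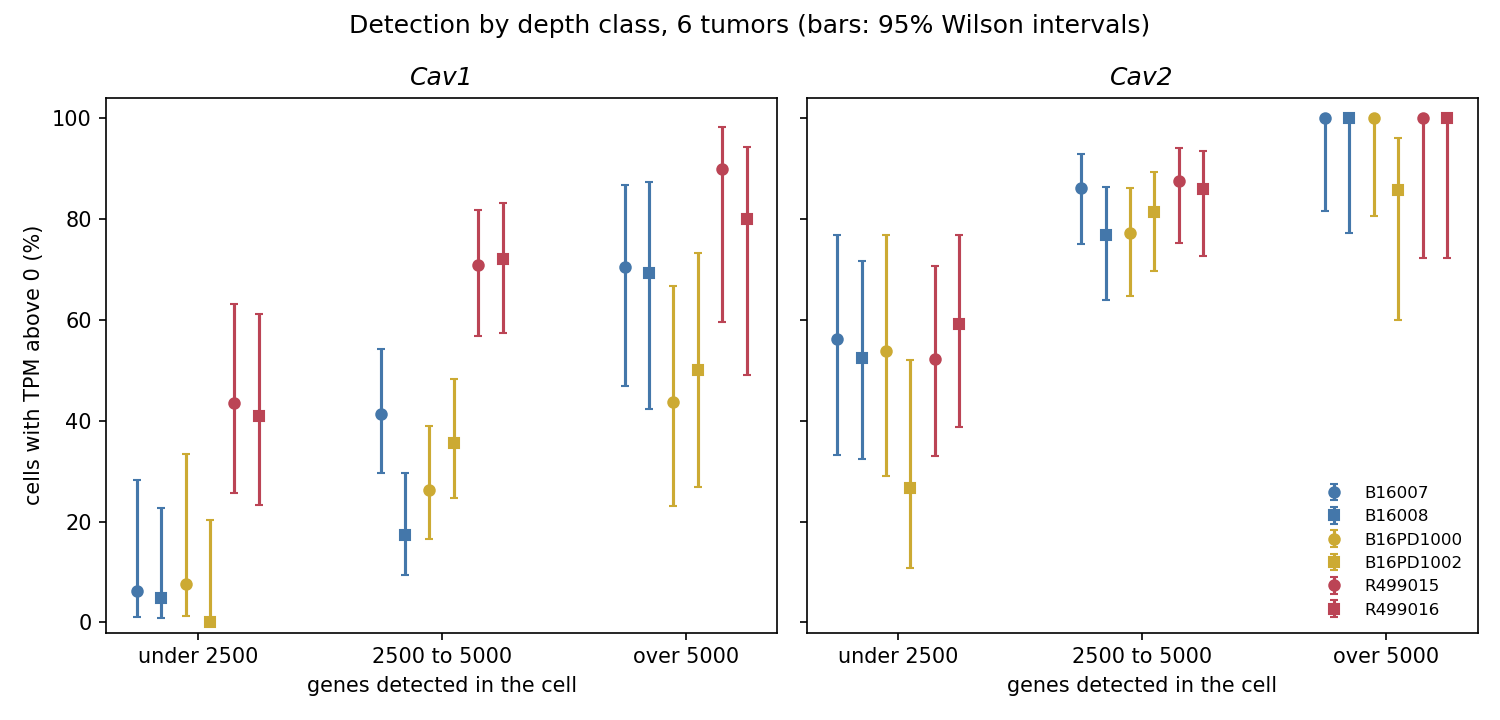
Percent of cells with TPM above 0 for Cav1 and Cav2 in 3 classes of genes detected per cell, for each tumor, with 95% Wilson intervals. In the middle class Cav1 is at 70.8% and 72.1% in the R499 tumors and at 17.3% to 41.4% in the others, and Cav2 overlaps between conditions.

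Pacsin2, Flot1, and Flot2 were detected in fewer R499 cells than Cav2. Of the 101 Cav1-positive cells, 57.4% had Pacsin2, 34.7% had Flot1, and 18.8% had Flot2, against 43.6%, 20.0%, and 10.9% of the 55 Cav1-negative cells. All 3 shares were higher in Cav1-positive cells, which were also deeper. In cells with 2500 to 5000 genes detected they were 56.9% against 50% for Pacsin2, 32.3% against 26.9% for Flot1, and 13.8% against 19.2% for Flot2, pooled over both tumors. The tumors disagreed for the flotillins, with Flot1 at 41.2% against 28.6% in R499015 and 22.6% against 25% in R499016, and Flot2 at 17.6% against 28.6% in R499015 and 9.68% against 8.33% in R499016.

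Across cells of a tumor, which are not replicates and differ in depth, correlations with Cav1 on log2(TPM + 1) were low. Pearson's r with Cav2 was 0.14 over 81 cells of R499015 and 0.35 over 75 cells of R499016, and -0.03 to 0.12 in the other tumors. With the number of genes detected it was 0.22 in R499015 and 0.31 in R499016. The median r over the 7219 genes ranked was 0.05 and 0.08.

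The genes most like Cav1, by the mean of r over the R499 tumors, were mt-Nd4 (0.40), Psme1 (0.35), Xpc (0.35), mt-Co2 (0.34), and mt-Co3 (0.34). Of these, mt-Nd4, mt-Co2, and mt-Co3 encode respiratory chain subunits of mitochondrial DNA, Psme1 a proteasome activator subunit, and Xpc a sensor of DNA damage. In the other 4 tumors r with mt-Nd4 ranged from -0.04 to 0.17. It ranged there from 0.04 to 0.16 with Psme1 and from -0.09 to 0.25 with Xpc. With mt-Co2 the range was -0.05 to 0.17, and with mt-Co3 it was -0.02 to 0.14. Cav2 ranked at 103 among the 7219 genes, with a mean r of 0.25.

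Some other genes, named here after their values were seen, were set beside Cav1. Among R499 cells, Capn6, a calpain without protease activity, was detected in 78.2% of Cav1-positive and 47.3% of Cav1-negative cells, Fscn1, an actin-bundling protein, in 38.6% and 27.3%, and Kalrn, a guanine nucleotide exchange factor, in 51.5% and 43.6%. Depth differed between these cells, and with 2500 to 5000 genes detected the shares were 88.2% and 42.9% in R499015 and 83.9% and 75% in R499016 for Capn6, 38.2% and 42.9%, then 41.9% and 41.7%, for Fscn1, and 47.1% and 42.9%, then 71% and 75%, for Kalrn.

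The other genes of caveolae were mostly low. Of 16 listed genes, 12 were tested, Cav3, Cavin4, and Ror1 were listed at 0 in all retained cells, and Cavin3 was found in a single B16PD1 tumor. Cavin1, a coat protein needed for caveolae, had tumor means between 0.58 and 1.07, and Cavin2, another coat protein, was at 1.35 and 1.49 in the R499 tumors, above the 0.90 to 1.30 of the other 4. Ehd3, a relative of EHD2 in endosomal transport, had tumor means of 2.58 and 2.50 for B16, 2.33 and 2.27 for B16PD1, then 0.95 and 1.64 for R499. Of all genes, 11.6% had both R499 tumors above both B16 tumors, and 10.2% above both B16PD1 tumors. The shares with both R499 tumors below were 30.1% and 31.3%.

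Apart from the members, 0 of 8 tested genes of caveolae were called in any contrast. The shares of all genes called were 0.0621% in R499 minus B16, 0.071% in R499 minus B16PD1, and 0% in B16PD1 minus B16. The median difference of these 8 was -0.11 for R499 minus B16 and -0.17 for R499 minus B16PD1, beside -0.07 and -0.09 over all genes. Ehd3 had the lowest difference of R499 minus B16 among them, at -1.25 (SE 0.32).

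In the flotillin and stomatin family, which shares the SPFH domain, 9 of 11 listed genes were tested, and 0 of the 7 other than flotillins were called in any contrast. Its most abundant genes were Stoml2, Phb, and Phb2, scaffolds of the inner mitochondrial membrane, with means over tumors of 6.20, 6.14, and 5.99. The median difference of these 7 was -0.19 against B16 and -0.12 against B16PD1, beside -0.07 and -0.09 over all genes. Of all genes, 0.0621% were called in R499 minus B16, 0.071% in R499 minus B16PD1, and 0% in B16PD1 minus B16.

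Among kinases, turnover factors, and partners of caveolin-1, 10 of 10 were tested and 0 were called in any contrast. Over all genes, 0.0621% were called in R499 minus B16, 0.071% in R499 minus B16PD1, and 0% in B16PD1 minus B16. The median differences of R499 for these 10 were -0.16 against B16 and -0.15 against B16PD1, beside -0.07 and -0.09 over all genes. The most abundant were Vcp and Ubxn6, an ATPase and its cofactor that take part in caveolin turnover, and Flna, an actin crosslinker that binds caveolin-1, with means over tumors of 5.24, 2.92, and 2.51. Vcp was lower in both R499 tumors, at 4.96 and 4.72, than in the others, at 5.16 to 5.56. Both R499 tumors were below both B16 tumors in 30.1% of all genes and below both B16PD1 tumors in 31.3%, so nothing is read from this.

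Cav1 and Cav2 are neighbors on the plus strand of chromosome 6. In the GENCODE annotation of GRCm38, the assembly also called mm10, Cav2 spans chr6:17281185-17289115 and Cav1 spans chr6:17306335-17341452, with 17219 bases between them. An antisense transcript, Gm15581 at chr6:17206823-17385604, overlaps both and has no value of its own here. The strand of the reads was not stated in the sources used here, and overlap of the exons of Gm15581 with those of the caveolins was not tested.

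Of 39 annotated genes with a start within 1 Mb of Cav1, 10 were measured, and 7 were tested, Cav1 included. Tes, Met, Capza2, St7, and Cftr were the tested neighbors beside the caveolins. Capza2, an actin capping subunit on the far side of Met, was also above the others in both R499 tumors, at 7.98 and 7.89 against 7.36 to 7.60. Both R499 tumors were above both B16 tumors in 11.6% of all genes and above both B16PD1 tumors in 10.2%. In Tes, St7, and Cftr the R499 tumors overlapped B16, and of these only Tes was above B16PD1 in both. The receptor kinase gene Met, between Cav1 and Capza2, was at 5.69 and 6.00 in the R499 tumors, 6.31 and 6.15 in B16, and 5.73 and 5.93 in B16PD1. None of these 5 tested neighbors was called in any contrast, where 0% to 0.071% of all genes were called. The untested genes were low, with Tfec detected in 2 cells, Wnt2 in 1, and Asz1 in 0.

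The promoters of the neighboring caveolin genes are shown because both genes were higher in R499. They come from RefSeq on GRCm38.p6, plus strand, from 250 bases before to 50 after a start, and both symbols matched. Capitals mark matches, on either strand, to the letters TGACTCA of an AP-1 site, GGGCGG of a GC box, TATAAA of a TATA box, CACGTG of an E-box, and CATGTG of an M-box core, and to the CCAAT box, which is named by its letters.
Cav2, chr6:17280935-17281234: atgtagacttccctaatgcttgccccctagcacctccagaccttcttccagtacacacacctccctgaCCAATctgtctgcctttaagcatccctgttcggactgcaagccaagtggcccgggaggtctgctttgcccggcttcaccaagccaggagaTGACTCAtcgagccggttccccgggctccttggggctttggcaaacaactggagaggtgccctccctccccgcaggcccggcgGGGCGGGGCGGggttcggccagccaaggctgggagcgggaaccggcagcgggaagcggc
Cav1, chr6:17306085-17306384: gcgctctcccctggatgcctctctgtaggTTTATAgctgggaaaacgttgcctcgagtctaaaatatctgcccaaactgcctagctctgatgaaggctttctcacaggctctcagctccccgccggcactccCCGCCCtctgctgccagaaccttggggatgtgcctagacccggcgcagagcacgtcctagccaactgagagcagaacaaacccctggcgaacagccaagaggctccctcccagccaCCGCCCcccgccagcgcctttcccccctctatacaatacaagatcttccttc
Cav1, second start, chr6:17307390-17307689: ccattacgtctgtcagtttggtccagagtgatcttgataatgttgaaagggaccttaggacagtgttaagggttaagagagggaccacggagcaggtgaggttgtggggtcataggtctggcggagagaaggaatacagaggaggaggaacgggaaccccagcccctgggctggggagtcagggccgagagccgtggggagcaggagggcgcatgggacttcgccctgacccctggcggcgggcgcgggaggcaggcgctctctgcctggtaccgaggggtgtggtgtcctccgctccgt

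The Cav2 window held 1 AP-1 match, 2 GC box matches that overlap each other, and 1 CCAAT match. The first Cav1 window held 2 GC box matches and 1 TATA box match, and the window of its second start held 0 matches. Among 32851 promoters of this length, 5.20% held the AP-1 letters, 35.7% a GC box, 37.4% a CCAAT box, 13.6% a TATA box, 7.15% an E-box, and 14.2% an M-box core. GC content was 64.3% for Cav2 and 59.3% for the first Cav1 window, against a median of 52.7% over all promoters. These matches describe letters only.

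Most markers of cell types known for caveolae were at or near 0. Of 10 endothelial markers, 6, Cdh5, Kdr, Tek, Esam, Cldn5, and Tie1, were at 0 in all 507 cells, and Egfl7, the most abundant, was detected in 22.3%. Their summed mean TPM was 65.0 in B16007, 48.0 in B16008, 103.3 in B16PD1000, 44.9 in B16PD1002, 20.6 in R499015, and 33.2 in R499016, and the mean TPM of Egfl7 alone over all cells was 52.3. In R499 the summed mean TPM of the 10 markers was 25.8 in Cav1-positive and 28.1 in Cav1-negative cells, while 19.8% and 14.5% of these cells held any of the markers. Any fibroblast marker was held by 7.92% and 5.45%, any pericyte or smooth muscle marker by 7.92% and 3.64%, any skeletal muscle marker by 7.92% and 1.82%, and any adipocyte marker by 0.99% and 1.82%. The part of cells with these markers in the Cav1 values was not tested, and values in cells without the markers are given below.

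Of the 8 fibroblast markers, Col1a1 and Pdgfra were at 0 in all cells, and the most abundant, Postn, was detected in 2.17% of cells, with summed mean TPM at most 3.01, in R499015. Of 6 pericyte and smooth muscle markers, Rgs5 and Notch3 were at 0, and Des, the most abundant, was in 7.50% of cells, with sums of 0.291 to 6.64. The 5 adipocyte markers, led by Fabp4, summed to at most 0.540, with Adipoq, Plin1, and Cidec at 0, and the 5 of skeletal muscle, led by Ckm, to at most 3.18, with Myh4, Myh1, and Tnnt3 at 0. All 4 keratinocyte markers were at 0, and Ptprc, which encodes CD45, was detected in 1 cell. The 8 immune markers, led by S100a8, summed to between 0.0209 in B16PD1002 and 17.1 in B16PD1000.

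Without cells that held any endothelial, fibroblast, pericyte, adipocyte, or skeletal muscle marker, Cav1 was detected in 62.1% (58 cells) and 58.7% (46 cells) for R499015 and R499016, 33.9% (59 cells) and 22.4% (58 cells) for B16007 and B16008, then 22.7% (44 cells) and 30.4% (56 cells) for B16PD1000 and B16PD1002. The R499 tumors remained above the others in this set, which was chosen after seeing the data.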

How the data were processed

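TPM in CD45-negative cells of 6 tumors (Smart-seq, ICELL8) was deposited without a filter. Per the submitters' processing notes and the study's methods, the authors aligned reads with STAR to mm10 and estimated TPM with RSEM; versions are not given in the sources used here. Of 25215 gene IDs, 25103 matched GENCODE M21.

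Cells with more than 1000 genes detected and under 10% of TPM from 37 mitochondrial genes were kept, and genes detected in more than 5 of them (11264). Doublets were not called, and the study's minimum of mapped reads was not applied. Tumor means of log2(TPM + 1) were fitted with limma 3.58.1 in R 4.3.3 (eBayes with a trend, two-sided, Benjamini-Hochberg, threshold 0.05). Python 3.11.15, pandas 2.3.3, and scipy 1.17.1 served for counts and intervals. Column names carry tumor numbers, not the replicate numbers of the labels. Members and lists were chosen with earlier results of these data known.

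Named genes were the members, list genes past the threshold or among the 3 most abundant of their list, genes within 1 Mb of Cav1, and the 5 genes with the highest mean r with Cav1 in R499, among those detected in at least 10% of cells of each R499 tumor. Other genes were named after their values were seen. The value of 1 immune marker on its own is not reported here. Alternatives were other pseudocounts, filters, depth windows, scalings, a covariate, no trend, and leaving out each tumor.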

Additional observations from a re-analysis of the deposited data

How the results depend on the processing

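Cav1 kept the higher condition mean in R499 against both other conditions under all 19 alternatives, as did the condition means of Cav2 and Flot1, and that of Flot2 stayed lower. Some of these alternatives cannot change a difference, so their agreement was fixed in advance. They are the filters on genes, the fit without a trend, and leaving out a tumor outside the contrast. The Cav1 difference against B16 was 3.53 and 1.34 with pseudocounts of 0.1 and 10, 1.78 from the log2 of mean TPM plus 1, 2.99 with genes detected as a covariate, and 1.85 to 2.99 leaving out each tumor, lowest without B16008. Against B16PD1 it was 3.71 and 1.41 with those pseudocounts and 3.45 with the covariate. The cause of these shifts was not tested, beyond that a pseudocount sets the scale. Subtracting each cell's mean moved the median difference of all genes from -0.07 to 0.03 against B16 and from -0.09 to 0.05 against B16PD1.

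Differences of B16PD1 minus B16 changed sign as follows, with none past the threshold, and the cause was not tested. Cav1 was 0.037 in cells with 2500 to 5000 genes and -0.69 to 0.46 leaving out each tumor. Cav2 was 0.029 with pseudocount 10, 0.14 from mean TPM, 0.051 with no filter on cells, 0.057 in the window, 0.12 without cells that held stromal markers, and -0.34 to 0.26 leaving out each tumor. Ehd2 was -0.031 with cell means subtracted and -0.015 to 0.018 leaving out each tumor. Pacsin2 was 0.25 in cells with more than 2000 genes and under 5% mitochondrial TPM, 0.26 in the window, 0.30 without stromal markers, and -0.24 to 0.089 leaving out each tumor. Flot1 was 0.00082 with pseudocount 10, 0.40 from mean TPM, 0.080 with the covariate, and -0.16 to 0.051 leaving out each tumor. Flot2 was 0.043 with pseudocount 0.1, 0.036 with no filter on cells, 0.22 in the stricter cells, 0.10 in the window, 0.12 with the covariate, 0.00032 without stromal markers, and -0.16 to 0.15 leaving out each tumor. Of R499 minus B16, Pacsin2, at 0.041, was 0.56 without R499015, -0.47 without R499016, -0.089 without B16007, -0.090 with pseudocount 0.1, and -0.15 from mean TPM. Of R499 minus B16PD1, Pacsin2, at 0.12, was -0.40 without R499016, -0.048 without B16PD1000, and -0.047 without stromal markers. Ehd2 changed sign in 5 and 4 of 15 alternatives in these contrasts.

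Counts of called genes moved most, for causes that were not tested. Against 7 in R499 minus B16, they were 11 and 3 with pseudocounts 0.1 and 10, 0 from mean TPM, 20 with genes in more than 50 cells, 22 with no filter on cells, 21 with stricter cells, 15 in the window, 28 with cell means subtracted, 0 with the covariate, 0 without a trend, and 0 to 10 leaving out each tumor, with 0 without B16008. Against 8 in R499 minus B16PD1, they were 13 and 3 with the pseudocounts, 0 from mean TPM, 14 with no filter on genes, 14 with genes in more than 50 cells, 16 with no filter on cells, 5 in the window, 22 with cell means subtracted, 0 with the covariate, 0 without a trend, and 3 to 8 leaving out each tumor, with 3 without B16PD1000 or R499015. Against 0 in B16PD1 minus B16, limma called 13 with no filter on genes and 0 to 2 leaving out each tumor, with 2 without B16007. The planned setting with no filter on genes keeps genes at 0 in all cells. An alternative added after its calls were seen, with genes in 1 or more retained cells, called 0, 0, and 0 in the 3 contrasts. Without cells that held stromal markers, also added after seeing the data, the counts were 1, 4, and 0.

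The Cav1 share of R499 was 61.4% at TPM above 10, 58.7% with no filter on cells, 66.9% in stricter cells, 71.5% in the window, and 60.4% without stromal markers. Co-detection with Cav2 in R499 was 51.9% at TPM above 10, 49.7% with no filter on cells, 63.8% in the window, and 51.9% without stromal markers. Cav1 shares of B16 and B16PD1 moved by less than the SD between tumors, which for B16 was wide, at 13.1. With 2 tumors in a condition, leaving out 1 cannot move the mean by more than that SD. The B16 share was 22.1% without B16007 and 40.7% without B16008. Where leaving out a tumor left a condition with a lone sample, that sample was assumed to vary like the others. No paired analysis was possible because the columns carry tumor numbers that are not the replicate numbers of the labels. Depth in reads is unknown, so a TPM of 0 is not absence of a transcript.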
